A study of Mus musculus with 8 samples.

Results

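The histone genes of the mouse were examined in liver tumours driven by c-MYC and in control livers. The gene family was defined by name: symbols beginning with Hist1h to Hist4h, H1f, H2f, H3f, H2af, H2bf, H3af or H3bf. With older symbols followed to current ones by gene identifier, 94 genes met this rule, of which 70 had a Hist1 to Hist4 name, called cluster genes here, and 24 were variant or lone linker genes outside the named clusters. A gene was counted as measured when a probe set of the array carried its symbol and no other, and the probe set with the highest mean was used where there were several. This left 45 histone genes among the 19937 genes measured, 31 of them cluster genes and 14 variants. Another 39 were covered only by probe sets shared between several genes, which are described apart, and 10, H1f0 among them, were not analysed here.

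Each of 4 c-MYC liver tumours and 4 control livers was hybridised to 1 Affymetrix Mouse Gene 1.0 ST array. The tumours came from mice with human c-MYC overexpressed in the liver from the CEBPB-LAP promoter under doxycycline control, and were collected at the humane endpoint. The controls were normal livers of matched mice. Strain, age, sex, and the mouse or tumour nodule behind each sample are not given in the labels, nor whether the matched mice carried the transgene or received doxycycline, and each p-value therefore reflects the spread among these samples alone.

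Histones package DNA: H2A, H2B, H3 and H4 form the core of the nucleosome, and the linker histone H1 binds where DNA enters and leaves it. Cluster genes are transcribed mainly in S phase, when new chromatin needs histones, and most of their mRNAs end in a stem-loop instead of a poly(A) tail. Variant genes lie elsewhere, give polyadenylated mRNAs as a rule, and supply replacement histones such as H2A.Z and H3.3 outside S phase. Some cluster genes, among them H2bc4, H2bc21 and H1f2, are known to give polyadenylated transcripts as well in differentiated cells. The labels name a standard Affymetrix protocol for biotinylated cRNA from total RNA and do not say how the cDNA was primed, and its part in the values of cluster genes was not tested.

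Promoters are shown for 3 cluster genes with large rises (H2ac4, H4c4 and H2bc18), for the H2A.Z genes H2az1, which rose, and H2az2, which did not pass, and for the variant H2aj. Each is the 250 bases before the RefSeq start in GRCm38.p6, written 5′ to 3′ in the direction of the gene. Capitals mark CCAAT (a box bound by NF-Y), TATAAA (the core promoter box), ATGCAAA (the octamer part bound by Oct-1) and CACGTG (the E-box form bound by MYC and its partners), on either strand. The windows are chr13:23750838-23751087 (plus strand) for H2ac4, chr13:23581318-23581567 (plus strand) for H4c4, chr3:96269450-96269699 (plus strand) for H2bc18, chr3:137864237-137864486 (plus strand) for H2az1, chr11:6444444-6444693 (minus strand) for H2az2 and chr6:136807998-136808247 (plus strand) for H2aj.
H2ac4: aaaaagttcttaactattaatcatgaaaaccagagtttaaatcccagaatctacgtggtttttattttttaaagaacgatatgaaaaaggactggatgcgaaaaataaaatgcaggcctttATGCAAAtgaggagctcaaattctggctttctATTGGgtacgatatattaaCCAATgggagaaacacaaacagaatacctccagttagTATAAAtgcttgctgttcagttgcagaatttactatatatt
H4c4: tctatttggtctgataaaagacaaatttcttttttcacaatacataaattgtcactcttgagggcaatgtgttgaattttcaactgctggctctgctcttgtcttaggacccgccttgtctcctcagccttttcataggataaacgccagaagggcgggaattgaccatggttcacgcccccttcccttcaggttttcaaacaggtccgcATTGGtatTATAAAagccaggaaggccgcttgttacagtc
H2bc18: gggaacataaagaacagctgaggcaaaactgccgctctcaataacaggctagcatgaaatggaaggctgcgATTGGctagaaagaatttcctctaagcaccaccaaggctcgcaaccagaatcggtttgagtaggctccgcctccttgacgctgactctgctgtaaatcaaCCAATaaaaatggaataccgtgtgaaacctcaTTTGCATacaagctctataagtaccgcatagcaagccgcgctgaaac
H2az1: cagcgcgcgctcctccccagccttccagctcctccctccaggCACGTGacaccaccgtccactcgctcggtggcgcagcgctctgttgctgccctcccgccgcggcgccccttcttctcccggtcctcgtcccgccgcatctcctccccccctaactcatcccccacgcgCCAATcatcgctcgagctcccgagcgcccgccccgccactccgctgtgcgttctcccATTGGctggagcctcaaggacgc
H2az2: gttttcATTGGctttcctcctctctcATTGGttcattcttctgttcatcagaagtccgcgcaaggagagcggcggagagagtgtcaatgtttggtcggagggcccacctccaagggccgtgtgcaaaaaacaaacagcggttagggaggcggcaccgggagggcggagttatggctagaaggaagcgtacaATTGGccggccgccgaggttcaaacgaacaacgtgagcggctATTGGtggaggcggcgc
H2aj: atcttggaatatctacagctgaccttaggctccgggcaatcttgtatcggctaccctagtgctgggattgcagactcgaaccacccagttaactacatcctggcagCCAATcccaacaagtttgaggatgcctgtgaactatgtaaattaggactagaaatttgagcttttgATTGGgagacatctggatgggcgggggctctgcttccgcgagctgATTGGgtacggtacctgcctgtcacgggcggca

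A RefSeq window was held for 38 of the 45 measured histone genes, 26 cluster genes and 12 variants. Shares were counted over whole windows of 300 bases, the 250 above and the 50 after the start. CCAAT, searched on both strands as CCAAT or ATTGG, was present in 84.6% of cluster windows and 66.7% of variant windows, against 37.4% of all 32851 windows. The CCAAT matches of H2ac8 and H2bc8 lay in mirrored positions, as did those of H2ac1 and H2bc1. Such windows may share the same DNA, so the 26 cluster windows may not all be separate stretches. TATAAA or its complement TTTATA was present in 61.5% of cluster windows, in 0 of the 12 variant windows and in 13.6% of all windows. A match was counted at any position in the window. TATAAA lay 28 bases before the start for H1f5 and 250 bases before it for H4c6, so these are shares of the letters and not of a placed box. The octamer ATGCAAA or TTTGCAT was found in 38.5% of cluster windows, 8.33% of variant windows and 4.63% of all windows. CACGTG, which reads the same on both strands, was in 0 of the 26 cluster windows and 1 of the 12 variant windows, against 7.15% of all windows. The variant window that held it was that of H2az1, 208 bases before the start. None of the motifs contains another. Among the 13 cluster windows of genes higher in tumours, 61.5% held TATAAA, as did 61.5% of the 13 other cluster windows. CCAAT was in 76.9% of the windows of genes higher in tumours and in 92.3% of the other cluster windows, and the octamer in 46.2% and 30.8% of these. A match to these letters is a description and not evidence that a factor binds.

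Of the 31 cluster genes, 14 were higher in tumours, 2 were lower and 15 did not pass the test. Of the 14 variants, 4 were higher, 1 was lower and 9 did not pass. The test was limma on log2 values with the Benjamini-Hochberg adjustment across the 19937 genes and a threshold of 0.05. By the same test 16.2% of all genes were higher and 12.7% lower, 28.9% in either direction. The median log2 change, tumours minus controls, was 0.35 over cluster genes and 0.01 over variants, against −0.04 over all genes. The 4 tumours lay wholly above the 4 controls for 14 cluster genes and 4 variants, where 16.3% of all genes did so, and wholly below for 1 cluster gene and 1 variant, where 13.9% of all genes did so, 30.2% in either direction. Of the 14 variants, 5 are known mainly from germ cells. Over the other 9, again 4 were higher and 1 lower, with a median log2 change of 0.47. Cluster genes without their germ-cell members numbered 28, of which 13 were higher and 2 lower, with a median log2 change of 0.39.

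**Figure D1:**
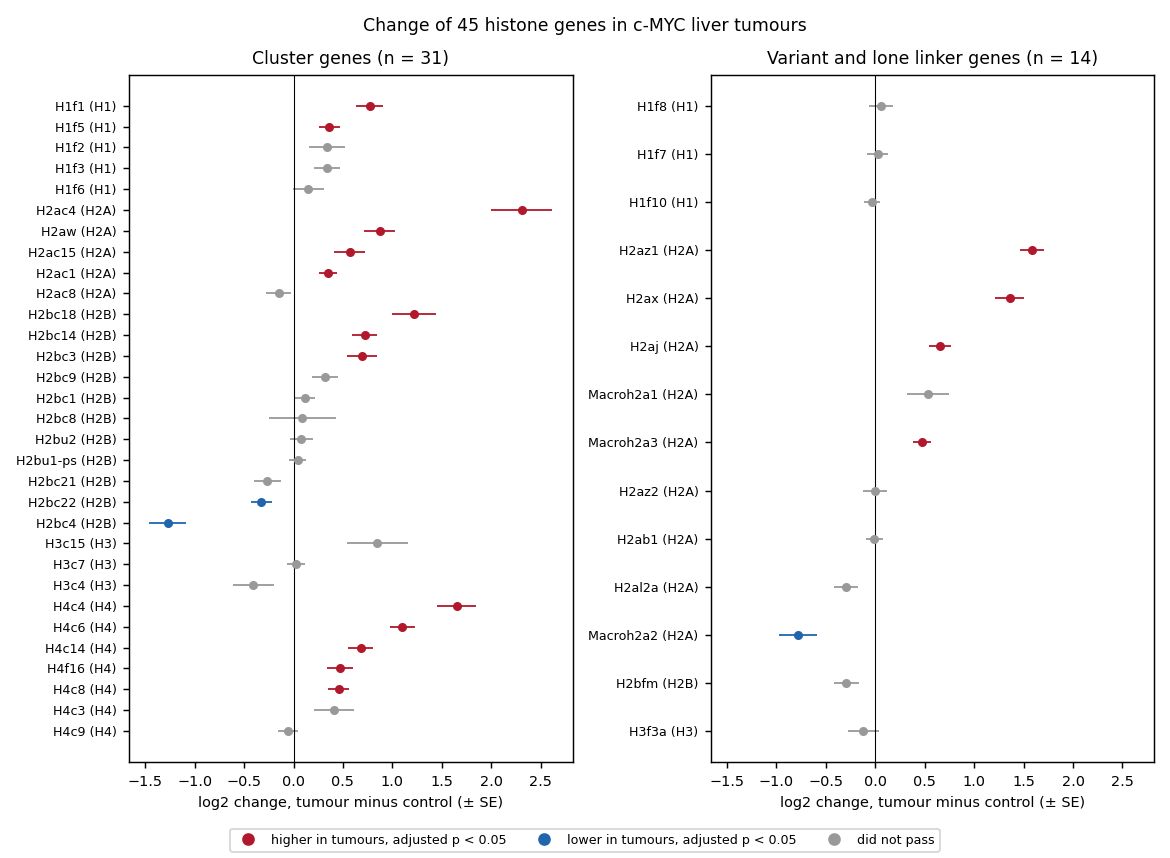
Log2 change (x axis, tumours minus controls) of each of the 45 measured histone genes with its SE, cluster genes on the left and variants on the right, coloured by the limma test with adjusted p under 0.05. Changes ran from −1.27 for H2bc4 to 2.31 for H2ac4, whose controls were all dim, and H2az1 and H2ax stood highest among the variants.

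The arrays hold a few facts that bear on these values. All 8 hepatocyte markers listed, such as albumin (Alb), were lower in tumours, with a median log2 change of −0.53. Cyp2e1, a cytochrome of mature hepatocytes, moved most, to 6.28 in tumours against 12.66 in controls. The mean log2 value of the 8 markers per array was 11.2 to 11.5 in tumours and 12.5 to 12.7 in controls. Control 3 stood apart from the other arrays, with Xist at 11.89 against 4.86 to 7.12 elsewhere. The Y-linked Uty, Kdm5d and Eif2s3y were at 3.46 to 5.39 in control 3 and at 7.62 to 9.37 elsewhere. By these genes control 3 had a female pattern and every other array, all tumours among them, a male pattern. Without control 3, the counts were 14 cluster genes higher and 2 lower, and 4 variants higher and 1 lower. The upper value of those Y-linked probe sets on that array, 5.39, served as a rough mark of a dim signal, chosen after the values were seen. Where every array of 1 group lay at or under the mark, a fold is given as a lower bound. Each array of that group was raised to the mark, and every array of the other group was left as measured. Both group means lay at or under it for 4 of the 45 genes (H1f3, H2ac8, H2bc1 and H3c7), and 1 mean for another 6. In bulk tissue, fewer cells of a type and less RNA per cell cannot be told apart.

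Linker histones of the clusters bind between nucleosomes and compact chromatin. Of the 5 measured, 2 were higher in tumours and 3 did not pass. H1f1 had log2 values of 7.74, 7.33, 7.56 and 7.11 in tumours 1 to 4, against 6.69, 6.57, 6.61 and 6.80 in controls 1 to 4. The groups did not overlap, tumour 1 was highest, and the change was 0.77 (SE 0.14, adjusted p = 0.00159 by limma). H1f5 averaged 6.52 ± 0.08 in tumours and 6.16 ± 0.16 in controls (SD, n = 4 each), a change of 0.36 with an adjusted p of 0.0264 by limma that was lost under 7 of 16 alternative settings. H1f2, a linker histone of many differentiated tissues, had values of 8.40, 8.25, 8.91 and 8.02 in tumours and 7.78, 8.06, 8.26 and 8.11 in controls, with tumours 2 and 4 inside the range of the controls. Its change of 0.34 (SE 0.18) gave an adjusted p of 0.209 by limma, and it was 0.17 without tumour 3. The testis linker histone H1f6 and the dim H1f3 did not pass either, with changes of 0.15 and 0.34, although H1f3 passed under quantile normalisation (adjusted p = 0.0264) and without tumour 2 (adjusted p = 0.0476) by limma.

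Among H2A genes of the clusters, which encode a core histone that pairs with H2B, 4 of 5 were higher in tumours. H2ac4 (earlier Hist1h2ab) had the largest measured change of the 45 genes, with log2 values of 6.91, 5.35, 6.37 and 5.64 in tumours against 4.03, 4.05, 3.32 and 3.66 in controls. Every tumour lay above every control, and tumours 1 and 3 were above tumours 2 and 4. The measured change was 2.31 (SE 0.31) with an adjusted p of 0.000257 by limma. All 4 controls and tumour 2 lay in the dim range, so the difference is given as at least 1.61-fold, with tumour 2 left as measured. H2aw (Hist3h2a) had values of 7.77, 7.38, 8.01 and 7.45 in tumours and 6.60, 6.68, 6.76 and 7.07 in controls. These groups were again separate, and the change of 0.87 (SE 0.16) had an adjusted p of 0.00176 by limma. A probe set shared by H2aw and Trim17 did not show this rise. Its means were 6.12 in tumours and 6.11 in controls, a difference of 0.012 that was not tested. H2ac15 was also dim in all 4 controls and in tumour 1, and was at least 1.34-fold higher in tumours with tumour 1 left as measured. Its measured change was 0.57 (SE 0.16). The call was lost without tumour 2 (adjusted p = 0.0571), tumour 3 (adjusted p = 0.0632) or control 2 (adjusted p = 0.0599) by limma. H2ac1, an H2A known from testis, rose by 0.35 (SE 0.09, adjusted p = 0.0135 by limma), the only one of 8 germ-cell histone genes that passed. Of 6 testis and oocyte markers 0 were higher and 0 lower by limma, also at an unadjusted p under 0.05, with a median log2 change of −0.04; their part in the H2ac1 value was not tested. H2ac8, dim on every array, changed by −0.15 and did not pass.

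The H2B genes of the clusters moved in both directions: of 11, 3 were higher in tumours, 2 were lower and 6 did not pass. H2bc18 (Hist2h2bb) had log2 values of 7.08, 5.99, 6.30 and 5.99 in tumours and 5.0, 5.14, 5.0 and 5.34 in controls. All tumours lay above all controls, with tumour 1 highest by a wide margin. The measured change was 1.22 (SE 0.22, adjusted p = 0.00178 by limma), and with all 4 controls in the dim range the tumours were at least 1.93-fold higher. H2bc14 and H2bc3 rose by 0.72 (SE 0.12) and 0.69 (SE 0.15), also with no overlap between the groups.

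H2bc4 (Hist1h2bc) went the other way, with values of 8.69, 9.30, 9.62 and 8.94 in tumours against 10.33, 10.50, 10.58 and 10.23 in controls. Every tumour lay below every control. The fall was 2.42-fold in linear terms, a log2 change of −1.27 (SE 0.18, adjusted p = 0.000413 by limma), and it passed under all 16 alternative settings run. H2bc22 was lower as well, at 6.27, 6.02, 6.08 and 5.98 in tumours and 6.60, 6.49, 6.25 and 6.31 in controls. Tumour 1 lay above control 3, so the groups overlapped, and the change of −0.32 (SE 0.11) passed only at an adjusted p of 0.04999 by limma. That call was lost under 11 of 16 alternative settings. H2bc21 (Hist2h2be), at 8.10, 7.98, 8.43 and 7.88 in tumours and 8.42, 8.25, 8.57 and 8.21 in controls, changed by −0.27 (SE 0.14, adjusted p = 0.187 by limma), and passed under quantile normalisation (adjusted p = 0.0497), where H2bc22 did not. Tumours 1, 2 and 4 lay under all controls and tumour 3 lay among them. H2bc8 had the widest spread of the H2B genes, with control 1 at 8.49 and the other controls at 6.82 to 7.18, and it changed by 0.09 (SE 0.33).

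**Figure D2:**
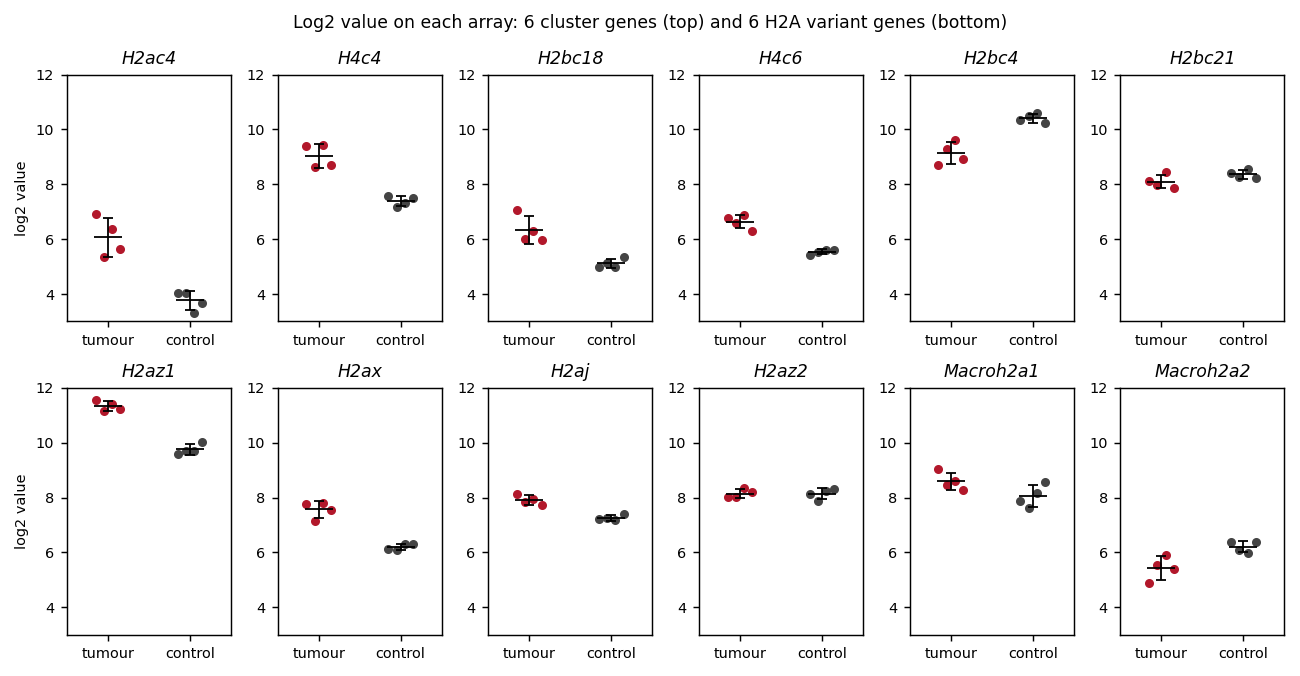
Log2 value (y axis) of 6 cluster genes in the upper row and 6 H2A variant genes in the lower row on each of 4 tumour and 4 control arrays; points are arrays and bars the mean ± SD. H2ac4, H4c4, H2bc18, H4c6, H2az1, H2ax and H2aj have all tumours above all controls, and H2bc4 and Macroh2a2 have all tumours below.

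Histone H3 and H4 form the tetramer at the centre of the nucleosome. Only 3 H3 genes of the clusters were measured alone, and each had a dim mean in at least 1 group. By limma 0 of the 3 passed, and 1, H3c15, had an unadjusted p under 0.05. H3c15 (Hist2h3c2) had log2 values of 6.57, 5.33, 5.96 and 5.78 in tumours and 4.79, 5.22, 5.81 and 4.44 in controls. Control 3 lay above tumours 2 and 4, so the groups overlapped, and the change of 0.85 (SE 0.31) gave an adjusted p of 0.0666 by limma. Without control 3 the change was 1.10 with an adjusted p of 0.0143, and without tumour 2 it was 1.04 with an adjusted p of 0.0350, by limma. H3c4 and H3c7 changed by −0.41 and 0.025.

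The H4 genes of the clusters rose in 5 of 7 cases and the other 2 did not pass. H4c4 (Hist1h4d) had values of 9.40, 8.62, 9.42 and 8.71 in tumours and 7.56, 7.17, 7.33 and 7.49 in controls. The groups were separate, tumours 1 and 3 again being above tumours 2 and 4, and the change was 1.65 (SE 0.19), 3.13-fold, with an adjusted p of 0.000101 by limma. H4c6 (Hist1h4f) had 6.78, 6.59, 6.89 and 6.31 in tumours and 5.42, 5.53, 5.60 and 5.62 in controls. Its groups were separate as well, with a change of 1.10 (SE 0.13), 2.15-fold, and an adjusted p of 9.31e-05 by limma. H4c14, H4f16 and H4c8 rose by 0.68, 0.47 and 0.46 with SE of 0.13, 0.13 and 0.11. The call for H4f16, the lone Hist4 gene, was lost without tumour 1, tumour 3, control 1 or control 3, with adjusted p between 0.0557 and 0.0633 by limma. H4c3 and H4c9 changed by 0.41 and −0.059 and did not pass. By locus, 10 of 23 measured Hist1 genes were higher and 2 lower, as against 2 of 4 Hist2 genes, 1 of 3 Hist3 genes and the 1 Hist4 gene higher.

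The cluster genes differed among the tumours. Their mean log2 value over all 31 genes was 6.77, 6.47, 6.74 and 6.53 in tumours 1 to 4, against 6.28, 6.23, 6.21 and 6.18 in controls 1 to 4. Tumours 1 and 3 held the top 2 values for 10 of the 14 cluster genes that rose, and for 5 of the 14 shared probe sets, described below, that rose. The mean of 14 S phase markers, genes of DNA replication such as Mcm6 and Rrm2, was 8.97, 8.49, 8.86 and 8.54 in the tumours and 6.80, 6.62, 6.64 and 6.57 in the controls. The 2 tumours with the higher cluster mean were the 2 with the higher S phase mean. The share of all genes with tumours 1 and 3 on top was not counted. Some genes outside these sets, such as the endothelial Pecam1 and Cdh5, had that order too, and others, such as Tek, did not. A link between the cluster genes and the S phase markers was not tested. Over the 14 variants the means were 7.11, 7.07, 7.15 and 7.12 in tumours and 6.84, 6.87, 6.85 and 6.98 in controls. This was a narrower spread among tumours than either of the other sets. Single variants differed, and of the 4 that rose, H2az1, H2ax and H2aj had tumours 1 and 3 above tumours 2 and 4. Macroh2a3 had tumours 2 and 4 above tumours 1 and 3.

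**Figure D3:**
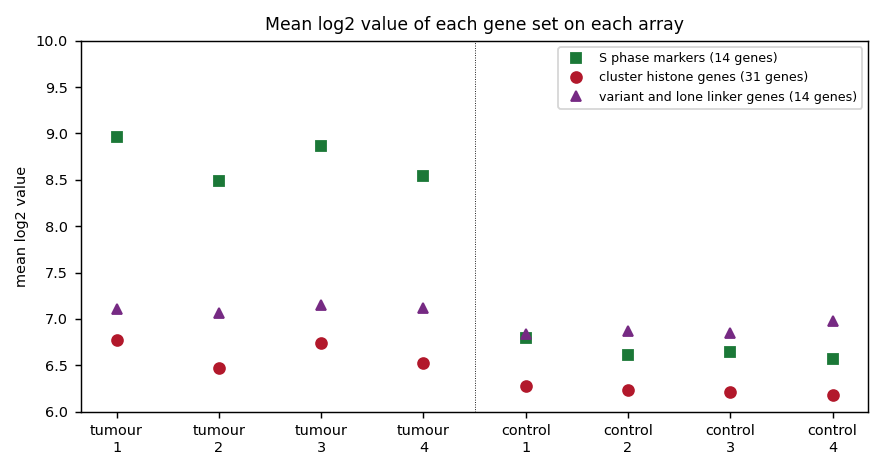
Mean log2 value (y axis) of the 31 cluster genes, the 14 variants and the 14 S phase markers on each of the 8 arrays (x axis, tumours left, controls right), 1 point per set and array. Tumours 1 and 3 were above tumours 2 and 4 for cluster genes and S phase markers.

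Among the variants, H2az1 (earlier H2afz), which encodes the H2A.Z placed at promoters in exchange for H2A, had log2 values of 11.55, 11.16, 11.42 and 11.24 in tumours against 9.59, 9.71, 9.70 and 10.02 in controls. The groups were far apart relative to their spread. The change was 1.58 (SE 0.13), 3.00-fold, with an adjusted p of 6.32e-06 by limma, the smallest of the 45 genes. A second H2az1 probe set differed by 1.72 in the same direction, at 10.52 ± 0.18 in tumours and 8.80 ± 0.14 in controls (SD, n = 4 each). H2az2 (H2afv), the other gene for H2A.Z, had 8.01, 8.01, 8.34 and 8.21 in tumours and 8.14, 7.88, 8.24 and 8.33 in controls. These groups overlapped throughout, and the change of −0.0039 (SE 0.12) gave an adjusted p of 0.988 by limma. The difference between the 2 genes' changes was not tested.

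H2ax (H2afx), the variant that is phosphorylated around DNA breaks and is partly controlled like a cluster gene, had values of 7.76, 7.16, 7.81 and 7.54 in tumours and 6.14, 6.08, 6.30 and 6.31 in controls. All tumours lay above all controls. The change was 1.36 (SE 0.14), 2.56-fold, with an adjusted p of 4.81e-05 by limma. H2aj, an H2A close in sequence to the cluster forms, had 8.14, 7.82, 7.94 and 7.74 in tumours and 7.21, 7.24, 7.18 and 7.40 in controls, with a change of 0.65 (SE 0.11, adjusted p = 0.00112 by limma). Tumours and controls were separate here too.

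MacroH2A histones carry a large macro domain and are associated with silent chromatin. Macroh2a2 (H2afy2) was lower in tumours, at 4.88, 5.54, 5.90 and 5.41 against 6.40, 6.09, 5.99 and 6.38 in controls. The nearest arrays, tumour 3 and control 3, were close together but the groups did not overlap, and the change was −0.78 (SE 0.20, adjusted p = 0.0119 by limma). Tumour 1 lay in the dim range, and tumour 4 lay just above the mark of 5.39. Macroh2a1 (H2afy) had 9.03, 8.48, 8.59 and 8.29 in tumours and 7.89, 7.63, 8.15 and 8.58 in controls. Control 4 lay above 2 of the tumours, and the change of 0.53 (SE 0.21) had an adjusted p of 0.0882 by limma, or 0.0194 without control 4 and 0.0425 with array weights. The transcribed pseudogene Macroh2a3 had 6.64, 6.79, 6.62 and 6.74 in tumours and 6.28, 6.30, 6.22 and 6.10 in controls, a change of 0.47 (SE 0.09, adjusted p = 0.00269 by limma) with separate groups.

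H3f3a, 1 of the genes for the replacement histone H3.3, had 5.55, 5.51, 5.48 and 5.32 in tumours and 5.20, 5.94, 5.44 and 5.76 in controls on the probe set that names it alone. The groups overlapped, with a change of −0.12 (SE 0.15, adjusted p = 0.629 by limma) that was −0.25 without control 1 and −0.0023 without control 2. That probe set was near the dim range on every array. Another 4 probe sets shared by H3f3a and Gm12657 differed by 0.07 to 0.47, and 2 shared by H3f3b and Gm6485 differed by 0.37 and 0.53, all higher in tumours on average and not tested. H3f3b, the other H3.3 gene, had no probe set of its own.

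The linker histone H1f10 (H1fx), a widely expressed H1 outside the clusters, changed by −0.035 (SE 0.08), at 6.69 ± 0.05 in tumours and 6.73 ± 0.06 in controls (SD, n = 4 each). The oocyte linker H1f8 and the spermatid linker H1f7 changed by 0.057 and 0.023. The testis variants H2ab1, H2al2a and H2bfm changed by −0.0095, −0.30 and −0.29. None of these 6 passed, with SE between 0.08 and 0.12.

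Probe sets shared by several histone genes cover most of the cluster genes that could not be measured alone, and take up signal from near-identical sequences. There were 22 on which every symbol was a histone gene. In a fit that added them to the 19937 genes, 14 were higher in tumours, 1 of them dim on every array, and 8 did not pass, with a median log2 change of 0.81. By limma 0 were lower, also at an unadjusted p under 0.05. The H3 genes, of which only 3 could be read alone, were covered by 9 such probe sets of 12 genes each; 6 were higher and 3 did not pass. Of the 6, 1 was dim on every array of both groups, and the other 8 probe sets changed by 0.16 to 0.92, 5 of them higher. For H4, 3 of 5 rose. The others changed by −0.20, on a probe set naming 11 genes, and by −0.13, on one that was dim on every array. For H2B, 3 of 6 rose. The probe set shared by 19 genes, mostly H2A genes of the clusters with H2ax and H3c4, had a measured change of 1.53 (SE 0.30, adjusted p = 0.00324 by limma). All its controls were dim, and it was at least 1.86-fold higher in tumours. The one shared by H1f4 and H2bc6 rose by 0.80 (SE 0.13, adjusted p = 0.000765 by limma).

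The largest measured change of any histone probe set was on one shared by 15 H2B genes. Its log2 values were 9.39, 8.0, 9.06 and 8.05 in tumours and 3.99, 3.32, 5.22 and 3.60 in controls. Every control lay in the dim range and every tumour well above it, tumours 1 and 3 highest. The measured change was 4.59 (SE 0.43), with an adjusted p of 1.90e-05 by limma, and the tumours were at least 9.45-fold higher. The other 5 probe sets shared by H2B genes differed by 0.37 to 1.42, although their gene lists were nearly the same as that of the first. Which gene gave the signal on a shared probe set cannot be read from these data, and genes measured alone may also take up RNA of close copies.

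**Figure D4:**
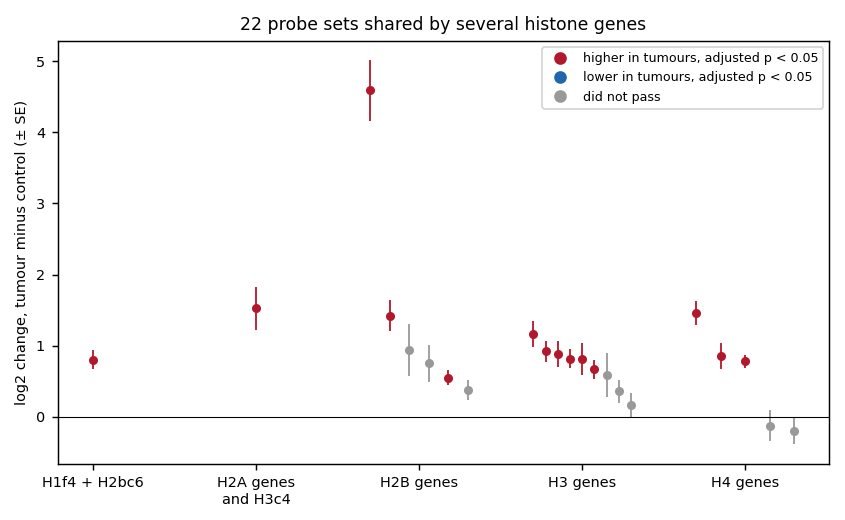
Log2 change (y axis, tumours minus controls) with SE of each of the 22 probe sets shared by several histone genes, grouped by the genes they name (x axis) and coloured by the limma test with adjusted p under 0.05. The H2B probe set at 4.59, dim in every control, stands apart, and 14 of the 22 were higher in tumours.

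Genes that make, process and deliver histones were counted from 7 lists, of whose 97 entries 90 were measured. Where 0 genes of a list are given as lower below, the count by limma at an unadjusted p under 0.05 was 0 too. Processing of histone mRNA, which needs the stem-loop binding protein and U7 snRNP proteins, had 10 of 13 genes higher and 1 lower, with a median log2 change of 0.63. Slbp, the stem-loop binding protein, was 8.04 ± 0.17 in tumours and 7.09 ± 0.24 in controls (SD, n = 4 each), a change of 0.95. Eri1, the exonuclease that trims histone mRNA ends, rose by 1.30, and Cstf2 and Cpsf2, parts of the cleavage machinery, by 0.80 and 0.70. Tut7, a uridyl transferase that tags RNA for decay, fell, with a change of −1.10 (SE 0.12, adjusted p = 7.13e-05 by limma).

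Transcription of histone genes depends on NPAT, which cyclin E and CDK2 activate. In that list 8 of 12 genes were higher and 0 lower, with a median of 0.38. Npat had values of 8.32, 8.63, 8.31 and 8.45 in tumours and 7.46, 7.26, 7.17 and 6.91 in controls. The groups did not overlap, and the change was 1.23 (SE 0.13, adjusted p = 4.81e-05 by limma). Ccne2 and Ccne1, the cyclins E, rose by 2.22 and 1.47, and Casp8ap2, a partner of NPAT at histone loci, by 0.88. The CCAAT-binding Nfyb and Nfyc rose by 0.51 and 0.32 with overlapping groups, calls lost under 8 and 10 of 16 alternative settings, and Nfya changed by 0.056 and did not pass.

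Histone chaperones escort new histones to chromatin, and 18 of 24 were higher in tumours with 0 lower and a median of 0.73. Nasp, which holds H3 and H4 in reserve, was 9.74 ± 0.15 in tumours and 7.97 ± 0.16 in controls (SD, n = 4 each). Its change was 1.77 (SE 0.11, adjusted p = 1.46e-06 by limma). Chaf1a, the large subunit of the chromatin assembly factor CAF-1, rose by 1.41, and Asf1b, which hands H3 and H4 to it, by 1.15. Hat1, which acetylates new H4, rose by 1.99, the H2A and H2B chaperone Nap1l1 by 2.11 and the replication-linked Mms22l by 2.12. Those that did not pass included Daxx at 0.26, Ubn1 at −0.088 and Ubn2 at −0.039, which take part in depositing the replacement histone H3.3. Hira and Atrx, which also take part in H3.3 deposition, rose by 0.49 and 0.42. The call for Atrx was lost under 6 of 16 alternative settings, and Daxx passed without control 4 (adjusted p = 0.0488 by limma).

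Exchange of H2A.Z is the work of the SRCAP and p400 complexes and of removal factors. In this list 6 of 13 genes were higher and 0 lower, with a median of 0.37. Anp32e, a chaperone that removes H2A.Z, rose by 1.45, and the shared ATPases Ruvbl2 and Ruvbl1 by 1.36 and 1.12. Actr6 rose by 0.95, and the catalytic subunits Srcap and Ep400 changed by 0.26 and 0.25 without passing; Ep400 passed with array weights (adjusted p = 0.0389) and without tumour 4 (adjusted p = 0.0344) by limma.

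Signalling from phosphorylated H2AX had 6 of 9 genes higher and 0 lower, with a median of 0.68. Brca1 rose by 2.06, the kinase Atm by 1.24, the phosphatase Eya3 by 1.34 and the reader Mdc1 by 1.00. All 5 measured genes of the centromeric histone list rose, with a median of 1.78. Cenpa, the centromeric H3 variant, was 8.49 ± 0.46 in tumours and 6.71 ± 0.25 in controls (SD, n = 4 each), a change of 1.78. Cenpn, Oip5 and Mis18a, which bind or load it, rose by 1.94, 1.94 and 1.31. All 14 measured S phase markers rose, with a median of 1.71 and the largest changes in Mcm6 at 4.24, Rrm2 at 3.13, Rrm1 at 3.06 and the helicase subunit Mcm4 at 2.35.

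**Figure D5:**
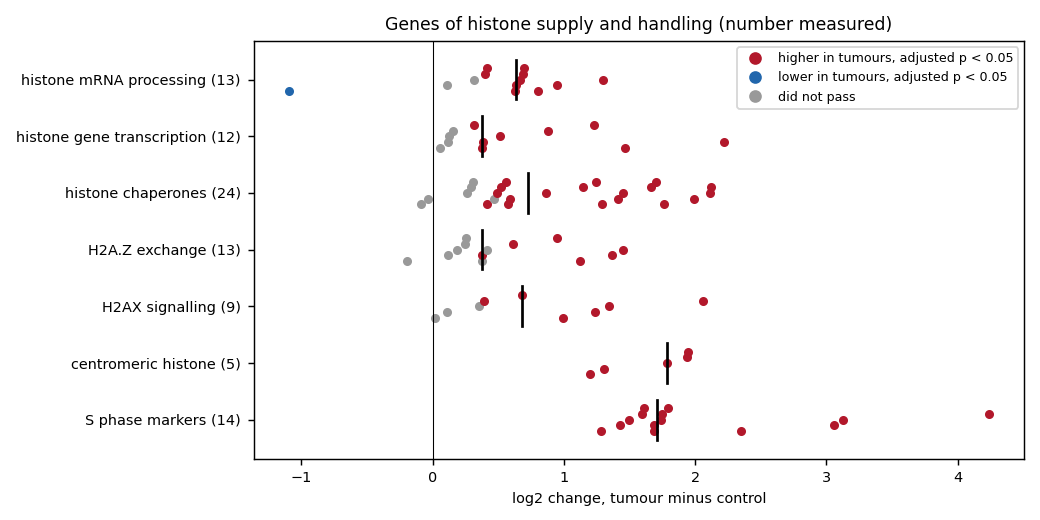
Log2 change (x axis, tumours minus controls) of each measured gene of 7 lists of histone supply, handling and S phase (y axis, number measured in brackets), coloured by the limma test with adjusted p under 0.05; bars are medians. Medians ran from 0.37 for H2A.Z exchange to 1.78 for the centromeric histone list, and 1 gene, Tut7, fell.

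Markers of other cells of the liver were counted beside these values. Of 8 macrophage markers 1 was higher and 3 lower, of 7 endothelial markers 0 were higher and 4 lower, and of 7 stellate cell and fibroblast markers 1 was higher and 2 lower. Of 4 bile duct markers 1 was higher and 1 lower. T and NK cell, neutrophil and erythroid markers had 0 of 7, 0 of 7 and 0 of 5 past the limma test and 0 of each at an unadjusted p under 0.05, and B and plasma cell markers had 1 of 5 lower. Mean log2 values per array ranged from 5.62 to 5.81 in tumours and 5.57 to 5.90 in controls for T and NK cell markers, and from 5.11 to 5.30 in tumours and 5.30 to 5.58 in controls for B and plasma cell markers. For macrophage markers they ranged from 7.17 to 7.67 in tumours and 7.43 to 8.23 in controls, and for endothelial markers from 6.72 to 7.12 in tumours and 7.25 to 7.87 in controls. The part of cell composition in the histone values was not tested.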

How the data were processed

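Total RNA of 4 tumours and 4 control livers was measured on 8 arrays. Values are log2 expression as deposited by the authors, for 34760 probe sets; RMA and R 3.0.2 are named per the submitters' processing notes, while settings and the authors' genome build are not given in the sources used here. Array medians lay between 6.33 and 6.44, and no further scaling was applied. Precision is limited by having 4 arrays in each group.

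Gene names came from the annotation table of the array: 21640 probe sets had 1 symbol, of which 21553 matched RefSeq (GRCm38.p6) by gene identifier, and 1321 had several. For 954 genes, 1 histone gene among them, the probe set with the highest mean was kept, leaving 19937 genes. Groups were compared by lmFit and eBayes of limma 3.58.1, run in R 4.3.3, group being the only term, with adjustment by Benjamini and Hochberg over all genes. Tables and plots were made with Python 3.11.15, pandas 2.3.3 and matplotlib 3.10.9. The fit was tested on simulated data. Promoter windows are RefSeq's.

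The members and lists were chosen with earlier results of these data known. Counts and medians over a list are therefore descriptions, with no test of the list. Named were all variants; cluster genes by the size of their change in each direction, by type, by level and by single aberrant arrays; and, in the other lists, up to 4 largest rises and 3 largest falls past the threshold plus Slbp, Npat, Chaf1a, Asf1b and Nasp. Nfya, Nfyb, Nfyc, Hira, Atrx, Daxx, Ubn1, Ubn2, Srcap, Ep400, Alb, Cyp2e1 and the other named cluster genes were chosen after their values were seen. Alternatives were quantile normalisation, median subtraction, omission of the dimmest 33.3% of genes, array weights, a robust variance with intensity trend, averaging over the probe sets of a gene, the replicate number as a block, a test against a 1.5-fold change, leaving out each array, and adding shared probe sets.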

Additional observations from a re-analysis of the deposited data

Results flagged for a closer look

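In 88 genes, the 45 histone genes and the genes named in the report from the lists, each group of 4 arrays was searched for an array that lay apart from the other 3. Of 176 groups, 9 had such an array by Dixon's criterion at the 95% level, and chance gives about 1 in 20 groups. H1f6, the testis linker histone, had 6.18 in tumour 4, above 5.52 to 5.55 in the other tumours. H2ac1 had 7.41 in tumour 1, below 7.58 to 7.61 in the other tumours, and all of these lay above the controls. Among the genes that did not pass the test, H2bu1-ps had 5.49 in control 4, below 5.65 to 5.68 in the other controls. H4c3 had 5.16 in control 2, below 5.87 to 5.99 in the other controls, and H1f10 had 6.81 in control 2, above 6.68 to 6.71. The chaperone gene Mms22l had 7.66 in tumour 2, below 7.88 to 7.90 in the other tumours. Daxx, an H3.3 chaperone, had 7.03 in control 4, above 6.60 to 6.64 in the other controls. Ep400, of the H2A.Z exchange list, had 7.99 in tumour 4, below 8.26 to 8.31 in the other tumours, and 7.79 in control 2, below 8.01 to 8.04 in the other controls.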

How the results depend on the processing

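The calls for H2ac4, H2bc4, H4c4, H4c6, H2az1 and H2ax were kept under every alternative in which each gene was tested. The count of cluster genes lower was 1 under median subtraction, array weights and the test against a 1.5-fold change, and 1 to 2 when single arrays were left out, H2bc22 being the call lost in each of these. The test against a 1.5-fold change, which asks for a larger change, left 3 cluster genes and 2 variants higher, 0 variants lower, 39 genes of the 7 supply lists higher, against 66 in the reported fit with each gene counted once, and 1719 genes in all. Without the dimmest 33.3% of genes, 0 variants were lower, since Macroh2a2 was left out, and the median change of variants was 0.25; it was −0.027 with array weights and −0.043 to 0.061 when single arrays were left out, where variants lower numbered 1 to 2 (2 without tumour 2, by H2bfm). With the 22 shared probe sets added to the 31 cluster genes, 28 were higher, 14 of them shared probe sets, and the median was 0.57. Many of the shared probe sets name the same genes, some also measured alone, so 28 is not a count of genes. Small changes of genes that never passed turned sign: H2az2 was at 0.013 under median subtraction and 0.020 with array weights, H2ab1 at 0.0070 under median subtraction, and H1f8 and H1f7 at −0.028 and −0.027 with array weights. With single arrays left out, the change ran from −0.091 to 0.056 for H2az2, −0.047 to 0.017 for H2ab1, −0.039 to 0.12 for H1f8, −0.055 to 0.082 for H1f7, −0.012 to 0.21 for H1f6, −0.088 to 0.47 for H2bc8, −0.00063 to 0.065 for H2bu1-ps, −0.00020 to 0.15 for H2bu2, −0.018 to 0.060 for H3c7, −0.11 to 0.0040 for H4c9, −0.022 to 0.12 for Nfya and −0.090 to 0.0096 for Ubn2. Without a turn in sign it moved by over 1.5 times for H1f10 (−0.053 to −0.0061), H1f2 (0.17 to 0.46), H2ac8 (−0.21 to −0.037), H2bc1 (0.074 to 0.20), H3c4 (−0.55 to −0.20), H3f3a (−0.25 to −0.0023), H4c3 (0.23 to 0.54) and Ubn1 (−0.12 to −0.041), none of which passed. Quantile normalisation lost H2bc22 and gained H2bc21 and H1f3, and array weights gained Macroh2a1, giving 5 variants higher. Deviations from the group mean correlated at −0.32 to 0.05 across genes between samples with the same number. Between samples with different numbers the range was −0.22 to 0.31. The labels do not say whether the numbers mark pairs, and these correlations cannot decide it. With the replicate number as a block, 5007 genes were called, 11 cluster genes were higher and 1 was lower, and 4 variants were higher and 1 lower. The block lost the calls for H1f5, H2ac1, H4f16 and H2bc22. The cause of these shifts was not tested. The arrays were 4 per group, dim genes such as H3c7 could not be read, and close copies of a gene could not be separated.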
